A study of Mus musculus with 12 samples.

Results

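RNA sequencing compared splenic type 1 conventional dendritic cells (cDC1) of Zfp366 knockout (KO) and wild-type (WT) mice. The libraries were chosen by title: the 3 labelled cDC1 zfp366 KO and the 3 labelled cDC1 WT, 6 of the 12 libraries in all. The other 6 are type 2 conventional dendritic cells (cDC2) from the same mouse pools. KO mice were zfp366-/- and WT mice zfp366+/+, and all were female and of strain C57/BL6. No age is given, and no treatment beyond cell isolation. Each library came from 1 pool of mice, pools 1 to 3 for KO and 4 to 6 for WT, so a library is a mean over an unstated number of animals. cDC1 were sorted after the spleens had been digested with collagenase and DNAse, so every library shares that handling. The labels give neither the exons that were deleted nor whether the deletion acts in every cell of the mouse.

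Dendritic cells take up material in tissues, sense microbes and present antigen to T cells. cDC1 need the transcription factors Irf8 and Batf3, take up dead cells and present their antigens on MHC class I to CD8 T cells, whereas cDC2 carry Irf4, Sirpa and CD11b and serve CD4 T cells more. Zfp366 encodes DC-SCRIPT, a C2H2 zinc finger protein of dendritic cells that acts in the nucleus on transcription. The question put by the comparison is which genes differ in level between cDC1 that have DC-SCRIPT and cDC1 that lack it.

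Read counts per gene were scaled to CPM, the count per 1000000 of the TMM-scaled library total, and values are listed for replicates 1, 2 and 3 in that order. Total counts ran from 17090924 to 25313827 in the 6 cDC1 libraries. Changes are log2 fold changes of KO over WT with their standard error (SE), and a gene is called, and said to rise or fall, at an adjusted p below 0.05 in edgeR's quasi-likelihood test over all 13415 genes kept of 27179. The labels name the mouse pools as biological replicates. Bulk levels cannot tell fewer cells of a type from less RNA per cell.

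One library stood apart from its group. Over the log2 CPM of 8778 genes (Pearson's r, across genes, which are not independent) cDC1 WT replicate 1 correlated with WT replicates 2 and 3 at 0.876 and 0.833, but with the 3 KO libraries at 0.918, 0.924 and 0.915. WT replicates 2 and 3 correlated at 0.991 and KO replicates 2 and 3 at 0.995. The median SD of log2 CPM over genes was 0.410 in the WT group, 0.120 without that library, and 0.131 in KO. Of 9673 genes whose KO libraries all lay on 1 side of WT replicates 2 and 3, WT replicate 1 was nearer to KO for 7166. Its ribosomal protein mRNAs were lowest, with 46 genes summing to 21590.5, 54609 and 63102 CPM in WT against 36248, 31702 and 36499 in KO. Longer genes read higher in it: across genes, the rank correlation of length with the deviation from the mean of the 12 libraries was 0.45, against 0.30 to 0.41 in KO and -0.24 and -0.34 in the other WT libraries. Libraries numbered 1 also shared a low level of the heat shock gene Hspa1a, at 230.3, 2779 and 2778 CPM in KO and 15.7, 2339.7 and 1769 in WT. Effects are therefore also given within replicates 2 and 3 and, without a test, in the pair numbered 1.

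**Figure D1:**
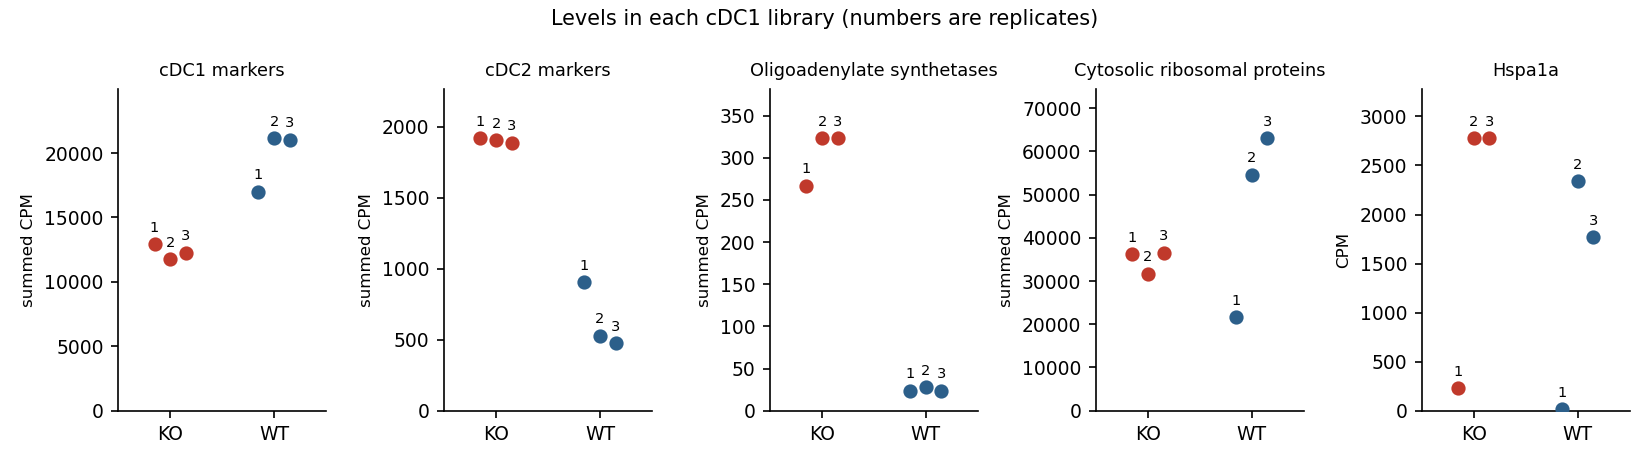
Summed CPM of 4 gene lists and CPM of Hspa1a (vertical axes, from 0) in each KO and WT cDC1 library, with replicate numbers beside the points. WT replicate 1 lies below all KO libraries for ribosomal proteins while WT replicates 2 and 3 lie above them, whereas cDC2 markers and oligoadenylate synthetases part KO from WT in every library.

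Among the cDC2 libraries, which enter only through the shared spread and the contrast with cDC2, both numbered 1 went against their labels at a pair of genes picked after their values were seen. Nnt, a mitochondrial proton-pumping transhydrogenase, stood at 14.4, 11.96 and 12.9 CPM in cDC1 KO and 68.3, 58.6 and 47.5 in cDC1 WT, but at 62.3, 12.7 and 11.96 in the libraries labelled cDC2 KO and 19.8, 46.02 and 37.8 in those labelled cDC2 WT. Apold1, an apolipoprotein L domain protein, stood at 0.796, 0.711 and 1.15 CPM in cDC1 KO and 346, 229 and 189 in cDC1 WT, against 47.6, 1.09 and 0.881 and 0.806, 31.7 and 28.8 in the cDC2 libraries labelled KO and WT. Over 8778 genes cDC2 WT replicate 1 correlated with cDC2 KO replicates 2 and 3 at 0.927 and 0.937. With cDC2 WT replicates 2 and 3 it correlated at 0.903 and 0.860. For cDC2 KO replicate 1 these values were 0.913 and 0.925 with KO, and 0.943 and 0.896 with WT. Whether the labels of these libraries were exchanged was not tested. A partial deletion of Nnt marks the C57BL/6J substrain; whether substrain moves with genotype here was not tested. Without both cDC2 libraries numbered 1 the cDC1 comparison called 1206 genes, 712 of the 714 below among them. With the 6 cDC1 libraries alone it called 880 (7.02% of those tested, 4.42% higher and 2.6% lower), with 568 of the 714. The fall of Nnt (-2.15, SE 0.56, adjusted p = 0.0434) lost its call in 11 alternatives, up to an adjusted p of 0.168: with library totals, with no filter on low counts, with a replicate block, when any 1 cDC1 KO library or WT replicate 2 or 3 of cDC1 or of cDC2 was left out, and when both cDC1 libraries numbered 1 were. That of Apold1 (-8.16, SE 1.71, adjusted p = 0.0149) lost it with no filter on low counts and when any 1 KO library was left out, up to 0.0851.

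Zfp366 itself, on chromosome 13 at 99184823 to 99247032 of GRCm38, stood at 48.8, 48.4 and 45.4 CPM in KO and 152, 89.2 and 67.5 CPM in WT. All KO libraries lay below all WT libraries, yet each kept between 45.4 and 48.8 CPM, and WT replicate 1 was the highest. Counts per gene do not show which exons these reads cover. The fall was called (-1.12, SE 0.27, adjusted p = 0.0326). It lost its call in 8 alternatives: when KO replicate 1, 2 or 3 was left out (adjusted p = 0.114, 0.127 and 0.142), when WT replicate 2 was (0.0718), when cDC2 KO replicate 3 was (0.0562), when both cDC1 libraries numbered 1 were (0.062), in the cDC1 libraries alone (0.0863) and with library totals in place of TMM (0.0625).

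KO and WT cDC1 differed in 714 of the 13415 genes, 5.32% of those tested: 483 rose (3.6%) and 231 fell (1.72%). Rises outnumbered falls. Their median was 2.03, with 248 at least 4-fold and 63 at least 16-fold higher, while falls had a median of -1.44, with 72 at least 4-fold and 16 at least 16-fold lower. The risen genes together took 4.50, 4.32 and 4.27% of the reads in KO and 1.62, 1.17 and 1.04% in WT, and the fallen genes 1.10, 1.06 and 1.10% in KO and 1.96, 2.66 and 2.77% in WT. The 3 KO libraries lay wholly above or below the 3 WT libraries in all but 1 of the risen and 1 of the fallen genes, against 26.9% of all genes tested. Within replicates 2 and 3, 713 of the 714 passed again in the same direction, where 47.8% of all genes passed. In the pair numbered 1, 482 risen and 231 fallen genes had the same sign, and 390 and 114 were at least 2-fold apart. Replicates 2 and 3 and the pair all entered the fit that called these genes, so these counts are a description and not separate support. In the pair 53.9% of all genes tested were positive. WT replicate 1 was nearer to KO than to the other WT libraries in 122 of the 714. DESeq2 called 1318 genes, 756 higher and 562 lower, so that 57.4% of its calls were rises against 67.6% of edgeR's. The comparison called 3052 genes without cDC1 WT replicate 1 and 318 to 384 without any 1 of the other 5 cDC1 libraries.

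**Figure D2:**
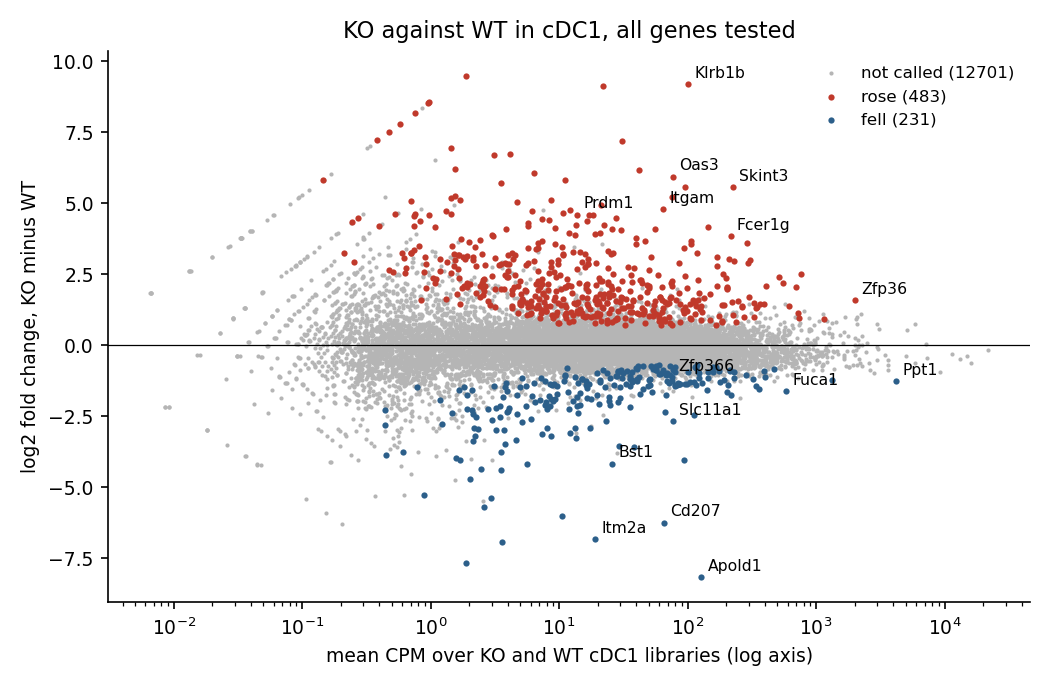
Log2 fold change of KO over WT (vertical axis) against the mean CPM of the 6 cDC1 libraries (horizontal log axis) for all genes tested, with the 483 that rose in red and the 231 that fell in blue. Rises spread further from 0 than falls, and the called genes of highest CPM, Ppt1 and Zfp36, changed by less than 2 on the log2 scale.

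Among the largest rises were membrane proteins of several kinds. Skint3, a butyrophilin-like protein of the Skint family, stood at 463, 465 and 389 CPM in KO and 12.6, 6.89 and 7.98 in WT (5.58, SE 0.38, adjusted p = 1.14e-05). Cd300lg, an immunoglobulin-domain receptor of the CD300 family, stood at 19.7, 15.99 and 14.5 against 0.660, 0.255 and 0.520 (5.12, SE 0.74, adjusted p = 0.00141). L1cam, an adhesion molecule known from neurons, stood at 19.97, 20.9 and 21.1 against 1.48, 0.561 and 0.405 (4.65, SE 0.58, adjusted p = 0.00048). In all of these the KO libraries lay close together and far above WT, whose levels were near 1 CPM except for Skint3. Gpr162, an orphan receptor, stood at 44.4, 36.5 and 41.4 CPM in KO and 2.14, 0.918 and 0.867 in WT (4.96, SE 0.49, adjusted p = 0.000108). Ltb4r1, the receptor for the chemoattractant leukotriene B4, stood at 31.9, 17.2 and 20.8 and 1.70, 0.306 and 0.578 (4.75, SE 0.64, adjusted p = 0.000826), with KO replicate 1 the highest. WT replicate 1 was the highest WT library for both, and no groups overlapped.

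Fallen genes included a surface enzyme, a carbonyl reductase and an inhibitor of signalling. Bst1 (CD157), a surface enzyme that makes cyclic ADP-ribose, stood at 3.14, 2.76 and 2.29 CPM in KO and 29.3, 57.7 and 60.2 in WT (-4.16, SE 0.47, adjusted p = 0.000242). Cbr3, a carbonyl reductase, stood at 5.57, 5.45 and 6.76 against 30.6, 85.97 and 95.4 (-3.58, SE 0.42, adjusted p = 0.000285). WT replicate 1 was the lowest WT library for both, at about the middle between KO and the other WT libraries for Cbr3 on a log scale. Cd99l2, a CD99-like adhesion protein, stood at 2.55, 2.65 and 2.46 CPM in KO and 16.99, 27.7 and 28.9 in WT (-3.26, SE 0.52, adjusted p = 0.00253), and Lhfpl2, a tetraspan membrane protein, at 0.756, 0.513 and 0.491 and 16.5, 8.21 and 7.40 (-4.18, SE 0.55, adjusted p = 0.000666). Spry1, a Sprouty inhibitor of receptor tyrosine kinase signalling, stood at 0.915, 0.750 and 0.819 against 8.58, 9.44 and 7.17 (-3.33, SE 0.42, adjusted p = 0.00048). Its 3 WT libraries lay within 1 narrow band, unlike those of Lhfpl2, where WT replicate 1 was the highest.

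By CPM gained, Zfp36, Egr1 (given with the immediate early genes) and Nfkbia came first among the genes that rose. Zfp36 (tristetraprolin), which speeds the decay of cytokine mRNAs, stood at 2982, 3032 and 3009 CPM in KO and 1275, 976 and 762 in WT (1.58, SE 0.24, adjusted p = 0.00198). Nfkbia, the inhibitor that holds NF-kB in the cytoplasm, stood at 1356, 1023 and 988 against 226, 296 and 287 (2.06, SE 0.32, adjusted p = 0.0022), and Tnfaip3 (A20), an enzyme that ends NF-kB signalling, at 1296, 740.4 and 678 against 278, 172 and 147 (2.19, SE 0.30, adjusted p = 0.000936). For Nfkbia and Tnfaip3 KO replicate 1 was the highest library, and each lowest KO library lay above the highest WT library. Dusp2, a phosphatase of MAP kinases, stood at 1069, 768 and 774 and 215, 136 and 139 CPM (2.42, SE 0.28, adjusted p = 0.000292). Arhgdib, a GDP dissociation inhibitor, stood at 659, 623 and 684 CPM in KO and 146, 151 and 162 in WT (2.10, SE 0.20, adjusted p = 9.47e-05), and Tgfbi, a secreted matrix protein, at 910.3, 875 and 914 and 319, 379 and 330.4 (1.39, SE 0.20, adjusted p = 0.00143). Replicates of the last pair differed little in either group. By CPM lost, Ppt1, a lysosomal thioesterase, came first at 2527, 2358 and 2502 CPM in KO and 4073, 6723 and 6974 in WT (-1.27, SE 0.25, adjusted p = 0.00889). Its call ended when KO replicate 2, KO replicate 3 or WT replicate 2 of cDC1 was left out (adjusted p = 0.0627, 0.0537 and 0.0551). Fuca1, a lysosomal fucosidase, stood at 292, 272 and 306 against 519.8, 1043 and 1068 (-1.60, SE 0.26, adjusted p = 0.00269), and Adam8, a membrane metalloprotease, at 109, 96.7 and 93.7 against 499.6, 278 and 233 (-1.76, SE 0.30, adjusted p = 0.00392). WT replicate 1 was the lowest WT library for Fuca1 and the highest for Adam8.

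**Figure D3:**
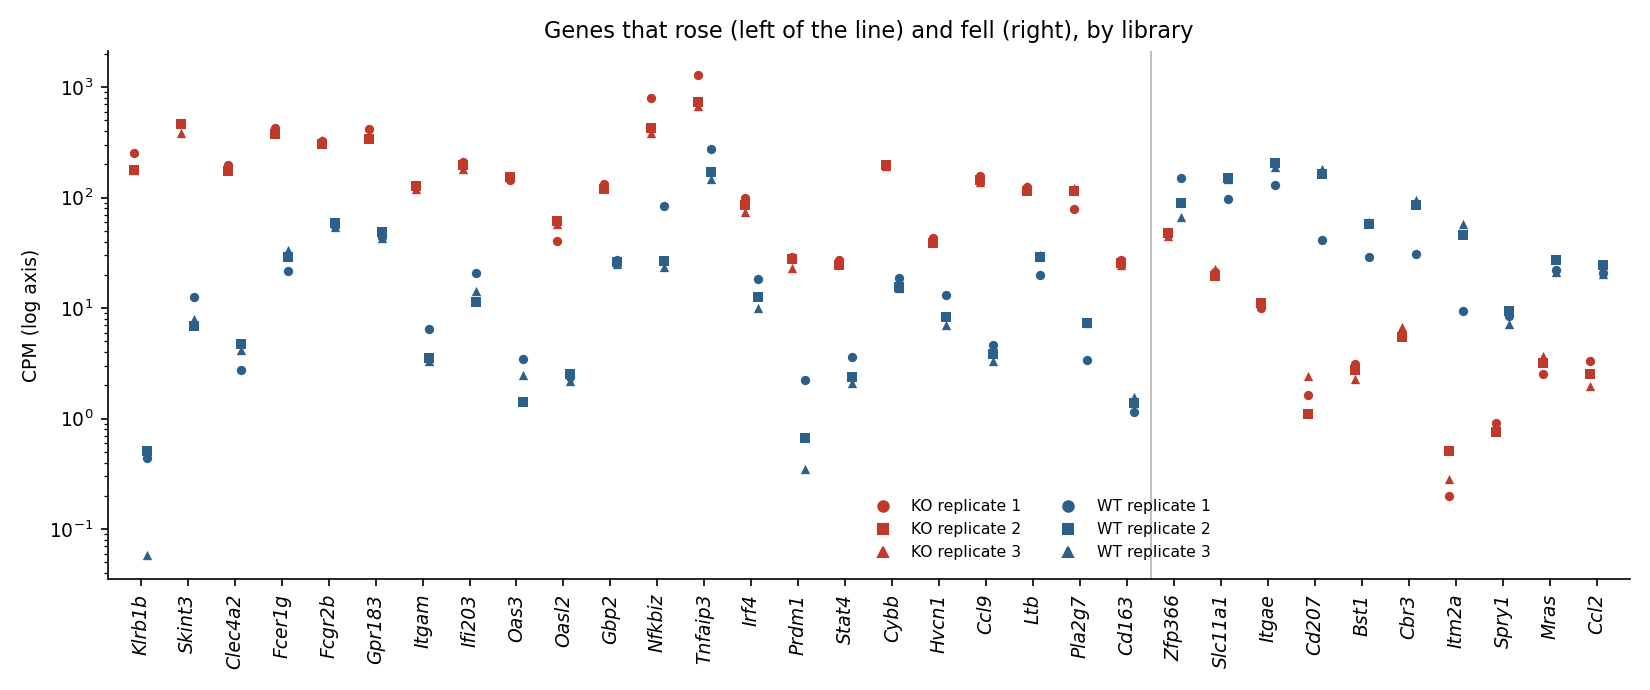
CPM (vertical log axis) of 22 genes that rose and 10 that fell, with KO libraries in red, WT libraries in blue and the marker shape giving the replicate. No gene shown has overlapping groups, and WT replicate 1 (circles) departs from the other WT libraries for Nfkbiz, Prdm1, Itm2a and Cd207 among others.

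Receptors were described by family. Myeloid C-type lectins, which bind glycans and dead cells, had 9 of 28 members risen and 1 fallen, with a median change of 1.33, where the median over all genes tested was -0.000775. Without cDC1 WT replicate 1 the counts were 12 and 1, where 11.8% of all genes rose and 10.5% fell. These shares, and 3.6% and 1.72% over all libraries, are those to set beside the counts of every later list. Clec5a, which signals through Dap12, stood at 11.8, 14.5 and 14.8 CPM in KO and 0.770, 0.918 and 1.56 in WT (3.66, SE 0.38, adjusted p = 0.00013), and Clec4b1 at 86.02, 77.4 and 86.4 against 1.10, 1.17 and 1.16 (6.18, SE 0.74, adjusted p = 0.00036). Clec4a2 and Clec4a4, whose families include inhibitory receptors, stood at 198, 174 and 189.5 and 75.5, 72.5 and 73.6 CPM in KO, against 2.75, 4.75 and 4.16 and 3.35, 6.58 and 6.30 in WT, with changes of 5.59, SE 0.58 and 3.77, SE 0.35. Groups did not overlap for any of these 4. The fallen member was Cd207 (langerin), at 1.63, 1.11 and 2.42 CPM in KO and 41.5, 165 and 184 in WT (-6.24, SE 0.70, adjusted p = 0.000209), with WT replicate 1 lowest in its group.

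Killer-type lectin receptors, known from NK cells, had 5 of 14 members risen and none fallen (median 1.48), and 5 risen and 1 fallen without WT replicate 1. Klrb1b, an inhibitory NKR-P1 receptor, stood at 253, 178 and 178 CPM in KO and below 1 CPM in every WT library (9.19, SE 1.49, adjusted p = 0.00285). Klra2, of the Ly49 family, stood at 42.4, 31.3 and 32.1 CPM against 0.825, 1.58 and 1.97 (4.59, SE 0.57, adjusted p = 0.000495). Klrd1 (CD94), the partner chain of NKG2 receptors, was present in both groups, at 29.4, 20.2 and 19.6 against 6.54, 7.25 and 7.29 (1.71, SE 0.21, adjusted p = 0.000458). No NK cell marker of the 5 tested was called, and their summed level was 180.5, 155 and 155 CPM in KO and 79.7, 101 and 98.9 in WT. Most of that was Klrk1, which cDC1 libraries held at over 75 CPM throughout, while Ncr1, Gzma and Nkg7 stayed below 1 CPM in each. Of the 5, 1 was higher at an unadjusted p below 0.05, and DESeq2 called none.

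Fc receptors and their signalling chains, which bind antibodies, had 4 of 13 members risen and none fallen (median 0.05). Without WT replicate 1 there were 4 and 1. Fcer1g, the shared signalling chain of activating Fc receptors, stood at 424, 373 and 416 CPM in KO and 21.7, 29.2 and 33.4 in WT (3.85, SE 0.30, adjusted p = 3.24e-05). Fcgr2b, the inhibitory Fc gamma receptor, stood at 327, 309 and 332 against 55.3, 59.4 and 54.1 (2.52, SE 0.27, adjusted p = 0.000162), and Fcrla, a Fc receptor-like protein of B cells, at 331, 269.5 and 288 against 41.7, 42.7 and 42.7 (2.81, SE 0.53, adjusted p = 0.00744). WT libraries of Fcgr2b and Fcrla lay within a few CPM of each other, replicate 1 included. Paired receptors of the Siglec, Sirp, CD300 and Lair families had 9 of 32 members risen and 2 fallen (median 0.63), and 11 and 3 without WT replicate 1. The inhibitory receptor Lair1, which binds collagen, stood at 79.8, 77.9 and 86.1 CPM in KO and 15.8, 21.6 and 22.1 in WT (2.03, SE 0.22, adjusted p = 0.000184). Cd300a, which binds lipids of dying cells, stood at 359, 297 and 309 and 66.4, 83.5 and 92.4 (1.99, SE 0.26, adjusted p = 0.000665), and Sirpa, which binds CD47 on other cells, at 88.9, 105 and 112 and 30.3, 22.3 and 21.5 (2.05, SE 0.25, adjusted p = 0.000394).

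Adhesion molecules had 4 of 28 members risen and 2 fallen (median 0.35), with opposite changes in integrins: Itgam (CD11b) stood at 128, 127 and 120.4 CPM in KO and 6.49, 3.57 and 3.35 in WT (4.80, SE 0.42, adjusted p = 5.5e-05), and Itgae (CD103) at 10.1, 11.3 and 11.1 in KO and 131, 208 and 189 in WT (-4.02, SE 0.66, adjusted p = 0.00296). Without WT replicate 1 the counts were 12 and 2. Itgb3, the beta chain of the vitronectin receptor, stood at 9.75, 10.9 and 10.7 CPM against 0.880, 1.07 and 0.925 (3.44, SE 0.37, adjusted p = 0.000162), and F11r (JAM-A), a tight junction protein, at 56.3, 37.98 and 36.9 against 3.79, 4.08 and 5.15 (3.33, SE 0.45, adjusted p = 0.000859). Of the semaphorin, plexin and ephrin genes 3 of 19 rose and none fell (8 and 0 without WT replicate 1). Plxnb2, a semaphorin receptor, was one, at 118, 138 and 148 CPM in KO and 60.6, 31.5 and 19.6 in WT (1.86, SE 0.33, adjusted p = 0.00522), with WT replicate 1 nearest to KO. Ion channels and synaptic proteins, whose genes are best known from neurons, had 5 of 29 risen and none fallen (6 and 1 without WT replicate 1). The AMPA receptor subunit gene Gria3 stood at 51.4, 67.2 and 66.4 CPM in KO and below 1 CPM in every WT library (7.18, SE 0.68, adjusted p = 9.47e-05).

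G protein-coupled receptors had 9 of 53 members risen and 1 fallen (median 0.34), and 13 and 2 without WT replicate 1. Gpr183 (EBI2), the oxysterol receptor that positions lymphocytes and dendritic cells in the spleen, stood at 416, 341 and 375 CPM in KO and 44.3, 49.03 and 43.1 in WT (3.05, SE 0.42, adjusted p = 0.000936). Chemokine receptors had 2 of 13 risen and 1 fallen (4 and 1 without WT replicate 1). Ccr2, the receptor for Ccl2, stood at 625, 486 and 464 CPM in KO and 114, 42.6 and 51.6 in WT (2.92, SE 0.63, adjusted p = 0.018). Leaving out KO replicate 1, WT replicate 2 or WT replicate 3 of cDC1 ended its call (adjusted p = 0.0581, 0.0993 and 0.092). Cytokine receptors had 7 of 44 risen and none fallen (median 0.56), and 20 and 0 without WT replicate 1. Lifr, the receptor for leukemia inhibitory factor, stood at 15.7, 17.3 and 15.2 CPM against 1.15, 0.357 and 0.752 (4.41, SE 0.47, adjusted p = 0.000148). Il2rg, the common gamma chain of several interleukin receptors, stood at 100.1, 84.1 and 96.4 against 37.3, 26.1 and 23.6 (1.69, SE 0.23, adjusted p = 0.000827), and Il12rb1, a chain of the receptors for IL-12 and IL-23, at 7.80, 8.01 and 8.72 against 0.110, 0.102 and 0 (6.72, SE 0.77, adjusted p = 0.000247).

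Innate sensors were counted in 3 lists. Of Toll-like receptors and adaptors 5 of 27 rose and none fell (median 0.25; 7 and 0 without WT replicate 1), Tlr1, a partner of Tlr2 for bacterial lipoproteins, from 7.20, 7.45 and 6.82 CPM in WT to 40.6, 30.7 and 31.8 in KO (2.26, SE 0.22, adjusted p = 9.69e-05). Of cytosolic sensors and PYHIN genes 5 of 23 rose and none fell (median 0.86), and 6 and 0 without WT replicate 1. Ifi203, of the interferon-inducible PYHIN family, stood at 209, 199 and 183 CPM in KO and 20.7, 11.4 and 14.2 in WT (3.67, SE 0.31, adjusted p = 5.24e-05). Ddx58 (RIG-I), a sensor of viral RNA, stood at 16.4, 22.2 and 18.96 against 3.35, 1.48 and 1.56 (3.17, SE 0.40, adjusted p = 0.000553), and Sting1, the adaptor for cyclic dinucleotides, at 181, 143 and 154 against 41.7, 39.95 and 35.1 (2.03, SE 0.32, adjusted p = 0.00221). WT replicate 1 was the highest WT library for these 3 and stayed far below KO. Of inflammasome and NOD-like receptor genes 2 of 19 rose and none fell (6 and 1 without WT replicate 1). Nlrc4, an inflammasome protein of the NOD-like receptor family, stood at 19.4, 19.3 and 18.4 CPM in KO and 3.57, 4.03 and 5.38 in WT (2.14, SE 0.28, adjusted p = 0.000782).

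Interferon-stimulated genes were counted in 3 lists. Oligoadenylate synthetases and their effector, which answer viral double-stranded RNA by cutting RNA, had 6 of 9 members risen and none fallen (median 2.94; 7 and 0 without WT replicate 1). Their summed level was 267, 323 and 323 CPM in KO and 23.7, 27.9 and 23.4 in WT. Interferon-inducible GTPases, which attack vacuoles that hold microbes, had 8 of 19 risen and none fallen (median 1.03; 9 and 0 without WT replicate 1). Of 48 other interferon-stimulated genes 6 rose and none fell (median 0.72), and 11 and 2 without WT replicate 1, where 11.8% and 10.5% of all genes did. Thus 20 of the 76 genes of the 3 lists were called, all higher, where 5.32% of all genes tested were called and 3.6% rose. Whether the families differ was not tested. Oas3 stood at 146, 154 and 154 CPM in KO and 3.46, 1.43 and 2.49 in WT (5.94, SE 0.58, adjusted p = 9.69e-05), Oasl2 at 40.7, 61.4 and 58.3 against 2.36, 2.55 and 2.20 (4.49, SE 0.49, adjusted p = 0.000184) and Oas1g at 12.2, 15.5 and 18.1 against 1.15, 2.55 and 2.25 (2.94, SE 0.33, adjusted p = 0.000247). KO replicate 1 was the lowest KO library for each, without reaching WT. Gbp2, a guanylate-binding protein, stood at 134, 119 and 126 CPM and 27.4, 26.2 and 25.1 (2.27, SE 0.20, adjusted p = 5.5e-05), Gbp3 at 22.8, 22.1 and 25.2 and 4.84, 5.0003 and 5.38 (2.20, SE 0.29, adjusted p = 0.000759) and Gbp4 at 66.6, 79.5 and 72.8 and 22.6, 14.5 and 10.6 (2.20, SE 0.38, adjusted p = 0.00443). WT libraries of Gbp2 and Gbp3 lay within a narrow range. Rtp4, a chaperone of membrane receptors, stood at 9.43, 11.6 and 12.8 CPM in KO and 0.660, 2.14 and 1.503 in WT (2.97, SE 0.44, adjusted p = 0.00171), and Ifit3, which binds viral RNA complexes, at 11.2, 18.2 and 18.2 and 1.32, 3.67 and 3.93 (2.41, SE 0.52, adjusted p = 0.0168). The Ifit3 call ended with limma-voom and when KO replicate 2, KO replicate 3 or WT replicate 2 was left out (adjusted p = 0.0568, 0.0618, 0.0608 and 0.0575).

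Promoters of the 3 lists were read for a motif known from such genes. The interferon-stimulated response element is bound by factors of the STAT and IRF families, and its core was searched as GAAA and GAAA with 2 bases of any kind between them, or TTTC and TTTC on the other strand, in RefSeq's window of 250 bases before to 50 after each start on GRCm38.p6. It was found in 3.49% of all 27025 RefSeq promoters and in 3.31% of the 10086 promoters of tested genes. Of the 20 risen genes of the 3 interferon lists 15 had a promoter in the table, and 14 of these held such a match, Oasl2 being the one without it. The 15 are not independent: Oas1a and Oas1g shared a matched stretch, which Oas1c held as its reverse complement. Ifit3 and Ifit3b shared a stretch with the same 2 matches. Stretches shared among members that did not pass were not looked for. Of the members of the 3 lists that did not pass, 18 of 40 held a match to the element. Of risen genes outside these lists, 23 of 352 (6.53%) held it, and of fallen genes 3 of 168 (1.79%). Another 3 motifs were searched on both strands: the ETS and IRF composite of GGAA and GAAA, 2 bases apart, the AP-1 site TGANTCA and an NF-kB-like site of GGGA and TTCC, 2 bases apart. They were in 1, 7 and 2 of the 15 promoters of risen members and in 13, 5 and 2 of the 40 of members that did not pass, against 2.54%, 4.97% and 1.59% of tested promoters. The composite was thus in a smaller share of the risen members than of those that did not pass, unlike the response element, and neither difference was tested. The response element and the composite can overlap. To show where the element lies in genes that rose, 5 promoters of the genes given above are printed 5′ to 3′ along the gene's strand, with matches to the element in capitals. A match is a string of letters and shows no binding, and none of these libraries measured any.
Oas3 (chr5:120777610-120777909, minus strand): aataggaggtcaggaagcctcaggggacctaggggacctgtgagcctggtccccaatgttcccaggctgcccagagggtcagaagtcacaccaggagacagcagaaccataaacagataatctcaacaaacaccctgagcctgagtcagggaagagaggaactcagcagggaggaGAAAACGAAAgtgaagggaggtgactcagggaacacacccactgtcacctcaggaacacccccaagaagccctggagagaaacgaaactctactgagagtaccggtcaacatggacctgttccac
Oas1g (chr5:120887564-120887863, minus strand): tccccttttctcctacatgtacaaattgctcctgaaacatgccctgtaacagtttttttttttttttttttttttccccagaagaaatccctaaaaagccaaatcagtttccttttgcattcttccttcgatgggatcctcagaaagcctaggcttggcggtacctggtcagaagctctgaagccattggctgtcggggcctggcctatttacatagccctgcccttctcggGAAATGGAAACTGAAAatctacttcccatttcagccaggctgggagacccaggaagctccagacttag
Gbp2 (chr3:142620413-142620712, plus strand): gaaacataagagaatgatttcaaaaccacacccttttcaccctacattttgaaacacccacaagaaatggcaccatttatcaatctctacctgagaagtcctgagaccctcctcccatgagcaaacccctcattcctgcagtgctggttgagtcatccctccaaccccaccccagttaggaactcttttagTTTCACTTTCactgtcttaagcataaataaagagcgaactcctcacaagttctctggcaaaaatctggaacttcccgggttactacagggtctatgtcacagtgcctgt
Gbp3 (chr3:142559794-142560093, plus strand): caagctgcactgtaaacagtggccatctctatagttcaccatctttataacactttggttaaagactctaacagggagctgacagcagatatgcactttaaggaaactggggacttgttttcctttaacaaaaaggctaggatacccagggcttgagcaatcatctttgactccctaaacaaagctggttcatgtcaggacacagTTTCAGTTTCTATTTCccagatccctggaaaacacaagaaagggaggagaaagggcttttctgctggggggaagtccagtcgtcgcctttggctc
Ifit3 (chr19:34583279-34583578, plus strand): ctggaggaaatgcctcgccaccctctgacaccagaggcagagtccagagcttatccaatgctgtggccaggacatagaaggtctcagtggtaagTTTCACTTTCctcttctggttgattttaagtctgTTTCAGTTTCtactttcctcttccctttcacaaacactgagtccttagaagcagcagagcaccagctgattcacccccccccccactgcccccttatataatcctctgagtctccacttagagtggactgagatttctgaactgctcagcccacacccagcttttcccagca
The first matched base lies 75 bases before the annotated start in Oas3, 59 in Gbp2, 45 in Gbp3 and 18 in Oas1g. Gbp3 and Oas1g each hold a second match that overlaps the first, and Ifit3 holds matches that begin 156 and 122 bases before its start.

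Regulators of transcription and signalling followed. Irf4, a factor of cDC2 and plasma cells, stood at 99.99, 86.7 and 74.2 CPM in KO and 18.5, 12.7 and 10.1 in WT (2.66, SE 0.26, adjusted p = 0.000101). Irf8, on which cDC1 depend, stood at 1418, 1254 and 1249.6 CPM in KO and 1942, 2276 and 2185 in WT and was not called (-0.71, SE 0.45, adjusted p = 0.435). All KO libraries of Irf8 nonetheless lay below all WT libraries, and it passed as lower in KO in 2 of 27 alternatives. Among 12 interferon regulatory factors 2 rose and none fell (4 and 0 without WT replicate 1). Prdm1 (Blimp-1), a repressor that ends B cell identity in plasma cells, stood at 29.05, 27.6 and 23.1 CPM against 2.25, 0.663 and 0.347 (4.602, SE 0.55, adjusted p = 0.00036), with WT replicate 1 above the other WT libraries. Of 38 lineage transcription factors 4 rose and none fell, and 16 rose without WT replicate 1. Stat4, which carries IL-12 and interferon signals, stood at 27.1, 24.8 and 26.9 CPM in KO and 3.63, 2.40 and 2.08 in WT (3.28, SE 0.26, adjusted p = 3.24e-05), and the feedback inhibitor Socs3 at 107, 56.2 and 50.2 and 15.9, 14.5 and 13.1 (2.29, SE 0.30, adjusted p = 0.000614), the 2 called of 21 STAT, JAK and SOCS genes (7 without WT replicate 1).

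NF-kB genes had 6 of 23 members risen and none fallen (median 0.48), and 13 and 0 without WT replicate 1. Nfkbiz, a nuclear IkB protein, stood at 798, 429.7 and 386 CPM in KO and 83.3, 26.9 and 23.6 in WT (3.59, SE 0.51, adjusted p = 0.00111), and Bcl3, another nuclear member of that family, at 30.1, 29.2 and 28.2 and 11.8, 10.6 and 9.37 (1.46, SE 0.20, adjusted p = 0.000908). Nfkbia and Tnfaip3, given above, were also among the 6, with Nfkbie, a further inhibitor, and Nfkb1, the precursor of an NF-kB subunit, both named after their values were seen to complete the count. Immediate early genes, which answer stimuli and tissue handling within minutes, had 4 of 24 risen and none fallen (median 0.81; 11 and 0 without WT replicate 1). Egr1 stood at 1217, 1391 and 1281 CPM against 272, 233 and 181 (2.503, SE 0.28, adjusted p = 0.000184), and Ier2 at 534, 526 and 549 against 205, 198 and 183 (1.46, SE 0.22, adjusted p = 0.0017). The summed level of this list was 31241, 29972 and 29766 CPM in KO and 18234, 16509.7 and 14372 in WT, and the part of cell isolation in it was not tested. Of 29 Src family and immune receptor kinase genes 3 rose and none fell (11 and 0 without WT replicate 1), the kinase gene Fgr from 58.1, 64.4 and 56.6 CPM in WT to 182, 176 and 182 in KO (1.59, SE 0.21, adjusted p = 0.000631) and the phosphatase gene Ptpn6 (SHP-1), which serves inhibitory receptors, from 172, 146 and 129 to 334, 395 and 409 (1.35, SE 0.20, adjusted p = 0.00134). In the Notch pathway 2 of 25 rose and 1 fell (6 and 1 without WT replicate 1), and Dtx1, a Notch target, was at 32.6, 42.9 and 41.5 CPM in KO and 2.69, 2.04 and 2.72 in WT (3.97, SE 0.23, adjusted p = 4.94e-06).

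Secreted and surface effectors came next. Cytokines and TNF family ligands had 9 of 34 members risen and none fallen (median 0.82), and 12 and 3 without WT replicate 1. Ltb (lymphotoxin beta), which shapes lymphoid tissue, stood at 125, 115 and 128 CPM in KO and 19.96, 29.2 and 30.4 in WT (2.21, SE 0.22, adjusted p = 0.000113), and Pdgfb, a growth factor for pericytes, at 54.2, 52.9 and 47.6 and 10.6, 11.9 and 9.48 (2.27, SE 0.26, adjusted p = 0.000276). Tnfsf10 (TRAIL), a death ligand, stood at 5.65, 5.92 and 3.69 against 0.550, 1.07 and 1.16 (2.45, SE 0.35, adjusted p = 0.00127). The replicates of Ltb and Pdgfb spread little, and Tnfsf10 was low in both groups. Chemokines moved both ways, with 4 of 17 risen and 2 fallen (also without WT replicate 1). Ccl9 and Ccl6, both CC chemokines of myeloid cells, stood at 159, 144 and 139 and 379.9, 299 and 329.9 CPM in KO and at 4.62, 3.88 and 3.30 and 43.8, 67.8 and 81.9 in WT, with changes of 5.22, SE 0.50 and 2.38, SE 0.30 respectively. Ccl2, which draws monocytes through Ccr2, stood at 3.30, 2.53 and 1.97 CPM in KO and 20.6, 24.5 and 20.5 in WT (-3.07, SE 0.36, adjusted p = 0.000332). Among 26 costimulatory genes 4 rose and 1 fell (6 and 4 without WT replicate 1), with the SLAM receptor gene Cd84 at 38.6, 39.95 and 40.4 against 5.17, 9.44 and 10.5 (2.24, SE 0.35, adjusted p = 0.00227). Of 26 complement and coagulation genes 2 rose and 2 fell (3 and 6 without WT replicate 1), and Plau (urokinase), a plasminogen activator, stood at 36.2, 86.7 and 76.3 CPM in KO and 4.40, 13.8 and 12.1 in WT (2.71, SE 0.52, adjusted p = 0.00817), with the library numbered 1 lowest in both groups.

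Antigen handling was read from presentation genes, proteases and the oxidase. None of 22 MHC class I presentation genes and none of 13 MHC class II presentation genes was called, with medians of -0.23 and -0.06. By edgeR's test within replicates 2 and 3, 13 and 6 of these were lower and 0 and 2 higher, where 22.9% of all genes were lower, and without WT replicate 1, 7 and 2 were lower. At an unadjusted p below 0.05 in edgeR's test over all libraries, 6 and 1 were lower and 0 and 1 higher, and DESeq2 called 3 class I genes lower and 1 class II gene higher. The class I member of smallest p was Calr (calreticulin), at 870.1, 785 and 841 CPM in KO and 1096, 1531 and 1539 in WT (adjusted p = 0.0723), and that of class II was H2-DMb2, which helps load peptides on class II, at 170.1, 142 and 157 and 88.9, 110.3 and 119 (adjusted p = 0.11). Among 16 proteases and inhibitors of the endosome 2 rose and none fell (2 and 2 without WT replicate 1): Ctsc (cathepsin C) stood at 526, 427 and 429.8 CPM against 183, 122 and 115 (1.72, SE 0.26, adjusted p = 0.00164), and Lgmn, an asparaginyl endopeptidase, at 144, 119 and 132 against 56.3, 54.9 and 56.4 (1.23, SE 0.17, adjusted p = 0.00109). The phagocyte NADPH oxidase, which makes superoxide in the phagosome, had 4 of 11 members risen and none fallen (median 0.15; 4 and 1 without WT replicate 1). Its catalytic subunit gene Cybb stood at 196, 196 and 194 CPM in KO and 18.6, 15.6 and 15.2 in WT (3.57, SE 0.28, adjusted p = 3.24e-05). Hvcn1, a proton channel that sustains the oxidase, stood at 43.6, 38.9 and 41.5 against 13.3, 8.37 and 7.11 (2.11, SE 0.31, adjusted p = 0.00159). KO libraries of both lay close together, and WT replicate 1 was the highest WT library for each.

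Lipid genes moved both ways, with 8 of 32 transporters and lipases risen and 4 fallen (median 0.30), and 10 and 5 without WT replicate 1. Pla2g7, which degrades platelet-activating factor, stood at 78.6, 114 and 121 CPM in KO and 3.41, 7.40 and 7.29 in WT (4.11, SE 0.47, adjusted p = 0.000241), with the library numbered 1 lowest in both groups. Abca9, an ABC transporter, stood at 20.1, 16.2 and 15.4 against 2.53, 1.38 and 0.463 (3.56, SE 0.55, adjusted p = 0.00214). Plpp1, a lipid phosphatase, stood at 19.5, 22.7 and 24.6 CPM in KO and 77.6, 124 and 135 in WT (-2.33, SE 0.34, adjusted p = 0.00145), and Mgll, which splits monoacylglycerols, at 0.279, 0.434 and 0.246 and 7.70, 7.09 and 5.49 (-4.38, SE 0.77, adjusted p = 0.00477). In glycolysis and the pentose phosphate pathway 2 of 24 rose and none fell (6 and 2 without WT replicate 1), with the glucose transporter gene Slc2a3 at 37.7, 32.2 and 32.4 CPM in KO and 11.3, 4.90 and 3.58 in WT (2.37, SE 0.40, adjusted p = 0.00398). None of 46 cytosolic ribosomal protein genes was called, with a median of -0.36. By edgeR within replicates 2 and 3, 44 of them were lower (median -0.75), where 22.9% of all genes were. In the pair numbered 1 all 46 had a positive difference (median 0.76), where 53.9% of all genes did. None of 13 mitochondrially encoded mRNAs was called either, with a median of -0.39 over all libraries, and 11 were lower within replicates 2 and 3 (median -0.62). Neither list held a gene at an unadjusted p below 0.05 in edgeR's test over all libraries, nor a call by DESeq2.

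Lists of cell state came last. None of 32 cell cycle genes was called (median 0.33). Without WT replicate 1, 3 rose and 2 fell, where 11.8% of all genes rose and 10.5% fell. At an unadjusted p below 0.05 in edgeR's test over all libraries 5 were higher, and DESeq2 called 2 higher. E2f2, a factor of S phase entry, had the smallest p at 27.8, 22.7 and 27.02 CPM in KO and 14.2, 13.8 and 11.9 in WT (adjusted p = 0.051). S100 proteins, annexins and galectins had 6 of 20 members risen and 1 fallen (median 0.01; 6 and 3 without WT replicate 1). S100a10 and Anxa2, which form 1 complex at the membrane, stood at 86.7, 64.2 and 67.5 and 437, 319.9 and 344 CPM in KO, against 15.9, 12.3 and 16.02 and 146, 117 and 111 in WT, and changed by 2.30 and 1.56. S100a4, a calcium-binding protein of motile cells, stood at 206, 185 and 206 CPM in KO and 37.99, 41.02 and 41.3 in WT (2.31, SE 0.40, adjusted p = 0.00398). Of 34 cytoskeleton genes Marcksl1 alone rose and none fell, from 241, 172 and 170.2 CPM in WT to 591, 431 and 427 in KO (1.31, SE 0.23, adjusted p = 0.00399), and 8 rose and 2 fell without WT replicate 1. Of 29 chaperone and unfolded protein response genes 1 rose and 2 fell (2 and 3 without WT replicate 1): the stress sensor gene Atf6 stood at 306, 349 and 327 CPM in KO and 159, 96.7 and 86.8 in WT (1.52, SE 0.25, adjusted p = 0.00304), and Creld2, which its pathway induces, at 46.04, 49.3 and 50.6 and 112, 131 and 130.3 (-1.36, SE 0.23, adjusted p = 0.00405). The death receptor gene Fas stood at 3.46, 4.30 and 3.28 CPM in KO and 12.3, 15.4 and 14.8 in WT (-1.94, SE 0.36, adjusted p = 0.00639).

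**Figure D4:**
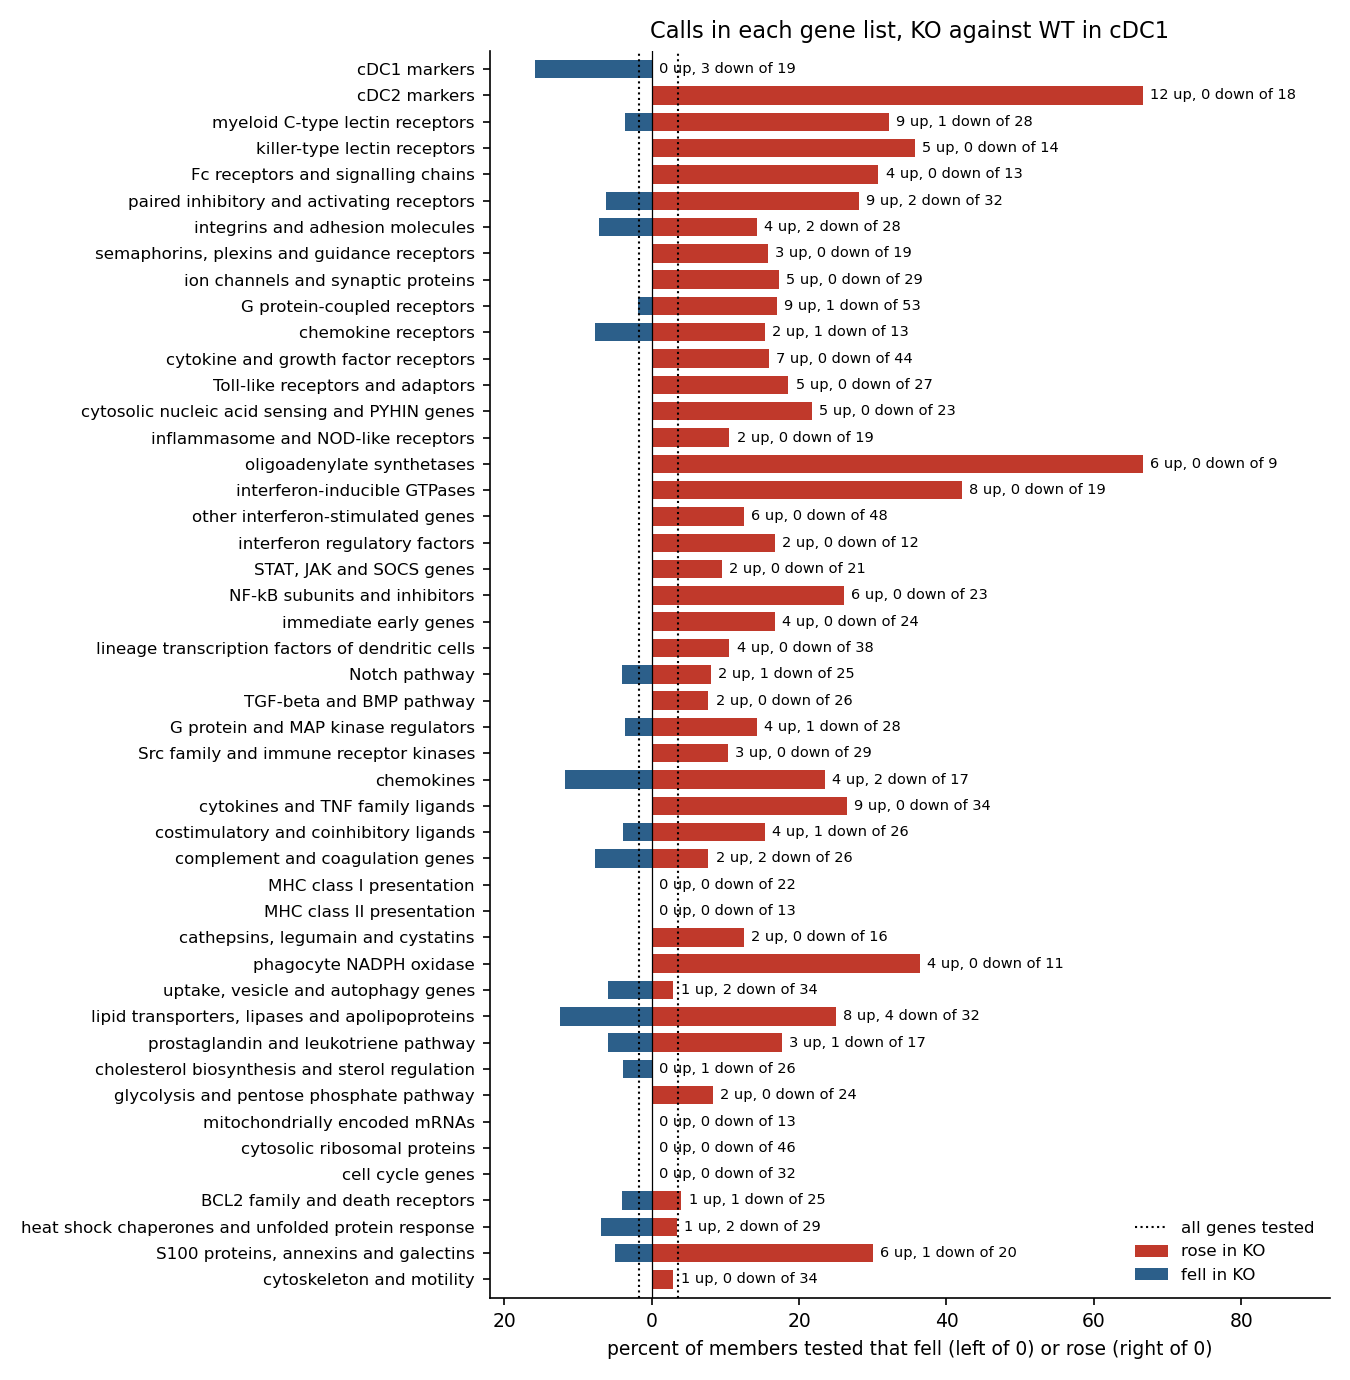
Percent of the tested members of each gene list that rose (red, right of 0) or fell (blue, left of 0) in KO cDC1, with counts beside the bars and dotted lines at the shares over all genes tested, 3.6% and 1.72%. Oligoadenylate synthetases and cDC2 markers have the longest bars, and presentation, ribosomal protein and cell cycle lists have none.

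Marker lists were read for the identity of the cells. cDC1 markers had 0 of 19 members risen and 3 fallen (Plpp1, Itgae and Ppt1), with a median of -0.53 (1 risen and 4 fallen without WT replicate 1). Within replicates 2 and 3, edgeR called 14 of the 19 lower and 2 higher, where 22.9% of all genes were lower and 24.9% higher. Their summed level was 12912, 11756 and 12239 CPM in KO and 16996, 21160.3 and 21034 in WT. Each library held the defining markers. The chemokine receptor gene Xcr1 stood at 502, 431 and 437 CPM in KO and 871, 1068 and 1058 in WT, Clec9a at 481, 401 and 411 and 458, 542 and 578 and Cd8a at 1488, 1482 and 1557 and 683, 1190.5 and 1114, none of them called (adjusted p = 0.302, 0.87 and 0.744). Within replicates 2 and 3, Xcr1 passed by edgeR (-1.32, adjusted p = 0.000343), as did Clec9a (-0.49, adjusted p = 0.0425) and, in the other direction, Cd8a (0.38, adjusted p = 0.0304). cDC2 markers had 12 of 18 risen and none fallen (median 2.30; 15 and 0 without WT replicate 1), at a summed 1921, 1907 and 1887 CPM in KO and 906, 526 and 476 in WT. The share of cDC2 cells within the sorted cDC1 was not tested. Cd209a, a lectin of cDC2, stood at 47.9, 41.1 and 44.2 CPM in cDC1 KO, 7.92, 7.30 and 8.21 in cDC1 WT and 552, 251 and 208 in the libraries labelled cDC2 WT.

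Markers of other cell types were counted the same way. Macrophage markers had 1 of 13 risen and 1 fallen (2 and 3 without WT replicate 1), at a summed 177, 266 and 263 CPM in KO and 143, 297 and 304 in WT, and the risen one was the haemoglobin scavenger receptor gene Cd163 (27.4, 25.4 and 24.6 CPM against 1.15, 1.38 and 1.56; 4.24, SE 0.45, adjusted p = 0.000155). Monocyte markers had 2 of 10 risen and 1 fallen, also without WT replicate 1, at a summed 2556, 2341 and 2542 and 823, 1603 and 1852 CPM. Their median change was -0.02, with 5 of 10 members positive, so the sums do not describe the list as a whole. Ms4a4c stood at 62.7, 56.4 and 62.8 against 9.62, 13.9 and 15.3 (2.23, SE 0.21, adjusted p = 9.47e-05). B cell markers had 1 of 9 risen and none fallen, also without WT replicate 1, at 675, 586 and 639 and 351, 427 and 417 CPM. Their median was -0.03, with 4 of 9 positive, Fcrla the risen member and Cd79a below 1.5 CPM in every library. T cell markers, none of 4 called (1 lower without WT replicate 1), summed to 3.82, 7.15 and 7.04 CPM in KO and 6.76, 9.75 and 7.34 in WT, with Cd3d below 1 CPM in every library and 1 member lower both at an unadjusted p below 0.05 and by DESeq2. Neutrophil markers, none of 6 called, summed to 7.36, 8.65 and 13.5 and 1.98, 16.1 and 24.3 CPM, and erythroid and platelet markers, none of 6 called, to 22.4, 55.2 and 60.9 and 16.5, 127 and 134. Plasmacytoid dendritic cell markers had 0 of 11 risen and 2 fallen (3 and 2 without WT replicate 1, 5 and 2 within replicates 2 and 3, where their median was 1.13), at 114, 136 and 132 and 186, 111 and 100.3 CPM. Within replicates 2 and 3, 24.9% of all genes were higher and 22.9% lower. Of the neutrophil markers none, and of the erythroid and platelet markers 1 (higher), had an unadjusted p below 0.05 by edgeR, and DESeq2 called none of either. Elane, a neutrophil protease gene, was at 0 in every cDC1 library. The part of such cells in the called genes was not tested.

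The effects within replicates 2 and 3 and in the pair numbered 1 differed in 4222 genes (31.5% of those tested) by edgeR's test of that difference, 2104 higher and 2118 lower. Of the 714 called genes 194 were among them, 119 risen and 75 fallen. The genes with the smallest p in that test had not been called over all libraries. Mki67, a protein of dividing cells, stood at 18.3, 122 and 112 CPM in KO and 79.7, 31.9 and 26.9 in WT, so that it was higher in KO within replicates 2 and 3 (1.97) and lower in the pair (-2.12), a difference with adjusted p = 1.91e-05. Macf1, a very large cytoskeletal linker, stood at 26.6, 96.7 and 99.9 and 62.9, 11.8 and 7.81 (3.30 within replicates 2 and 3, -1.24 in the pair), and Mycbp2, a very large ubiquitin ligase, at 64.9, 138 and 136 and 124, 24.6 and 18.8 (2.63 and -0.93), with adjusted p = 4e-05 and 3.46e-05 for the difference. Hspa1a went the other way (0.41 and 3.87, adjusted p = 4e-05). Called genes had a median length of 2936 bases where they rose and 2162 where they fell, against 2644 over all genes tested. With a length offset for each library 672 of the 714 calls remained, and within replicates 2 and 3 with that offset 702 did.

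**Figure D5:**
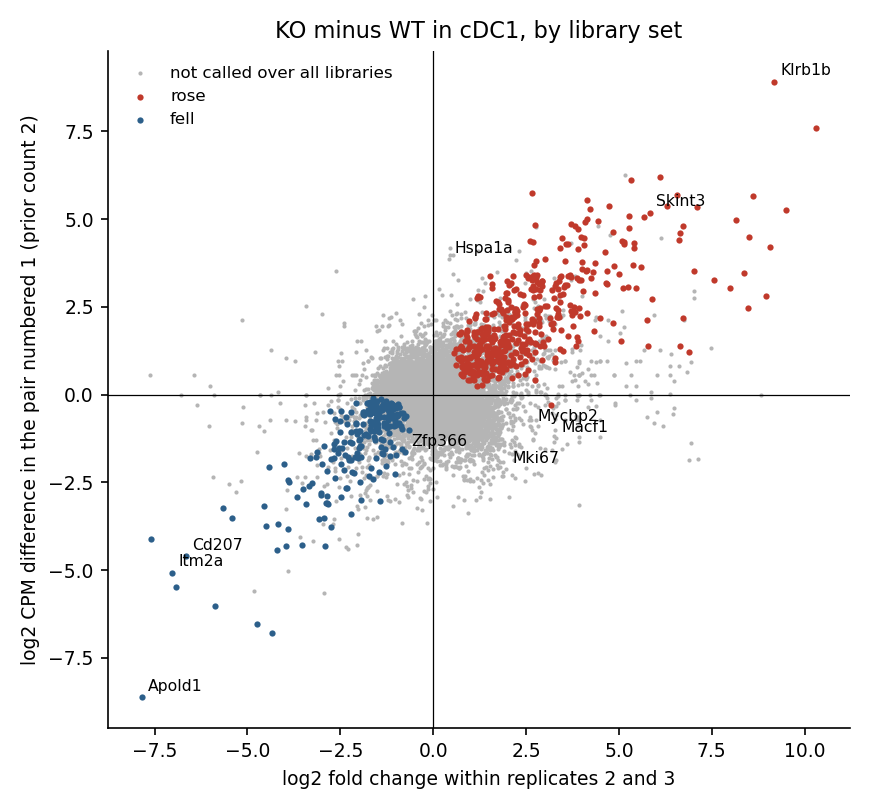
For each gene tested, the log2 fold change of KO over WT within replicates 2 and 3 (horizontal axis) and the log2 CPM difference in the pair numbered 1 (vertical axis, prior count 2). The genes called over all 6 libraries (red and blue) lie in the quadrants of equal sign except 1, while uncalled genes such as Macf1, Mki67 and Mycbp2 lie in a quadrant of opposite sign.

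Calls were also read by position on GRCm38. Of 395 windows of 5 Mb with at least 10 tested genes, 288 held a call and 2 held 10 or more, the next having 7. Over all genes tested 3.6% rose and 1.72% fell, the shares to set beside the counts of these 2 windows. On chromosome 1 from 170000001 to 175000000, 17 of 74 tested genes rose and none fell. These included Fcrla, Fcgr2b, Fcer1g, F11r, Cd84, Atf6 and Ifi203, so that Fc receptor, SLAM and PYHIN genes there were counted in different lists above. On chromosome 6 from 120000001 to 125000000, 15 of 58 rose and none fell, Clec4a2, Clec4a4, Clec4b1, Cd163, Ptpn6, Gpr162 and Slc2a3 among them. Members of such clusters are near-identical in part, as the Clec4a, Oas1, Gbp and Klra genes are, and how reads that fit several copies were counted is not given in the sources used here. Levels of single copies are therefore less certain.

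Set beside cDC2, the KO effect in cDC1 differed for 190 genes (1.42% of those tested) by edgeR's interaction test, 170 higher in cDC1 (1.27%) and 20 lower (0.149%). Of the genes called in cDC1, 170 that rose and 19 that fell were among these. The dendritic cell subsets of a pool share their mice. With the pool as a block 116 genes passed, 101 of the 190 among them, 104 higher and 12 lower. Both cDC2 libraries numbered 1 are in doubt as given above.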

How the data were processed

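Per the labels' protocols, polyA RNA of sorted splenic cDC1 and cDC2 was purified with an RNeasy Plus kit and prepared with TruSeq. Per the submitters' processing notes, the authors aligned to GRCm38 (mm10) and counted reads with featureCounts, with no version given. The deposited table holds raw counts for 27179 Entrez Gene identifiers, and its other column is gene length in bases. RefSeq named 25275 genes, and the 1904 without a name held 2.23% of the reads.

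One edgeR 4.0.16 model (R 4.3.3, limma 3.58.1) was fitted to the 12 libraries: filterByExpr, TMM, 4 group means, robust quasi-likelihood F test, Benjamini-Hochberg over all genes tested. SE was taken as the size of the log2 fold change divided by the root of its F statistic. The pair numbered 1 gives a log2 CPM difference with a prior count of 2. The genotypes' pools differ, so KO and WT were not paired. cDC1 and cDC2 of a pool share mice by their labels, which the contrast with cDC2 takes up only in a fit with the pool as a block.

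Genes named are Zfp366; the 20 largest rises and falls among called genes that do not overlap and reach 5 CPM; the 10 per direction with the largest CPM difference; up to 3 called members, or 1 uncalled member, per list; the 6 per direction of smallest p in the contrast with cDC2 and in replicates 2 and 3 against the pair; and cell type markers. That gave 257 genes, 162 of them called, of which 110 kept their call under each of 27 alternatives that gave an adjusted p and 52 lost it somewhere. Genes given singly are drawn mostly from the 110, and those of the 52 given with a change have the settings that end the call beside it. The comparison, the 55 lists and the rule were chosen with earlier results of these data known. Of 1332 list entries 1330 were matched. Of several promoters of a gene the first listed was used. Alternatives were other scalings, filters, tools (DESeq2 1.42.0, limma-voom), length offsets, a replicate block and left-out libraries. Some genes that the rule takes are not reported here.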

Additional observations from a re-analysis of the deposited data

Results flagged for a closer look

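Of the 190 genes whose KO effect differed between cDC1 and cDC2, the 6 per direction of smallest p are given because of that difference. For KO against WT in cDC2 edgeR called 0 genes, with 114 higher and 157 lower at an unadjusted p below 0.05. Of the 12, 11 passed under all 19 alternatives of that contrast, 18 fitted with edgeR and 1 with DESeq2, and Ltbp2 in 18 of them, its adjusted p being 0.0589 by edgeR with the mouse pool as a block. Since both cDC2 libraries numbered 1 go against their labels at Nnt and Apold1, the cDC2 effects rest on labels in doubt. Leaving both out was among the 19.

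Skint3 had 111, 188 and 228 CPM in the libraries labelled cDC2 KO and 221, 146 and 130.1 in those labelled cDC2 WT, and the difference of effects was 5.50, SE 0.47, adjusted p = 0.000185. Itm2a, a membrane protein of the Itm2 family, had 0.933, 1.09 and 0.504 and 1.26, 0.790 and 2.37 CPM there (-6.09, SE 0.94, adjusted p = 0.00514). Fcer1g had 374, 686 and 639 and 670.4, 456 and 430.4 CPM (3.72, SE 0.40, adjusted p = 0.000842). Skint3 in cDC1 KO thus lay above every cDC2 library of either label, while Fcer1g in cDC1 KO lay near the lowest cDC2 libraries. For both genes the first-listed library labelled cDC2 KO lay below the first-listed library labelled cDC2 WT. The later libraries labelled cDC2 KO lay above the later ones labelled cDC2 WT. Labels of the first-listed libraries are in doubt, so these values do not show either gene to be unchanged in KO cDC2.

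The B cell coreceptor gene Cd72, at 20.6, 26.9 and 27.9 CPM in cDC1 KO and 1.65, 1.38 and 2.02 in cDC1 WT, differed by 3.87, SE 0.33, adjusted p = 0.000185. Dtx1 differed by 3.66, SE 0.30, adjusted p = 0.000185. Ptpro, a receptor tyrosine phosphatase (91.6, 65.3 and 64.7 CPM in cDC1 KO and 8.58, 4.69 and 5.32 in cDC1 WT), differed by 3.58, SE 0.38, adjusted p = 0.000842, and Mmp12, the macrophage elastase (30.8, 30.6 and 27.7 and 4.29, 4.34 and 3.58), by 2.78, SE 0.28, adjusted p = 0.000842. All 4 had higher levels in every cDC2 library than in cDC1 WT.

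Mras, a Ras-like GTPase, stood at 2.55, 3.16 and 3.73 CPM in cDC1 KO, 22.3, 27.4 and 21.3 in cDC1 WT and at most 2.19 in any cDC2 library, and its effects differed by -3.49, SE 0.44, adjusted p = 0.00164. Ltbp2, a matrix protein of the latent TGF-beta binding protein family, stood at 1.71, 1.82 and 1.60 and 24.2, 13.1 and 9.66 in cDC1 and differed by -3.36, SE 0.50, adjusted p = 0.00419. Tpm2, a tropomyosin (0.995, 1.82 and 1.72 and 6.10, 17.6 and 15.6), differed by -3.25, SE 0.56, adjusted p = 0.0103, Ubtd2 (8.55, 6.36 and 7.82 and 29.4, 26.7 and 27.001) by -2.05, SE 0.34, adjusted p = 0.00812, and Slc11a1, a metal transporter of phagosomes (21.1, 19.5 and 22.4 and 96.5, 152 and 149), by -1.93, SE 0.33, adjusted p = 0.0106. Over these 6 genes the highest level in any cDC2 library was 24.4 CPM, of Slc11a1.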

How the results depend on the processing

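Calls in cDC1 depended most on which libraries were used. Against 714 calls (483 higher, 231 lower), DESeq2 gave 1318 (756 and 562), replicates 2 and 3 alone 6438 (3349 and 3089) and the same with a length offset 5113 (2629 and 2484). Leaving out both cDC2 libraries numbered 1 gave 1206 (778 and 428), and leaving out both cDC1 libraries numbered 1 gave 1757 (1023 and 734). A length offset gave 620 higher and 376 lower calls, and 666 and 389 with a replicate block. Leaving out 1 library at a time gave 318 to 3052 calls (247 to 1617 higher, 64 to 1435 lower). The 3052 came without cDC1 WT replicate 1, and 384, 346, 344, 318 and 346 without KO replicate 1, 2 or 3 or WT replicate 2 or 3. Those fits have fewer samples, and the cause was not tested.

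The contrast with cDC2 had 190 calls, 480 with DESeq2, 5157 within replicates 2 and 3, 336 without both cDC2 libraries numbered 1, 116 with the mouse pool as a block (added after seeing the data) and 110 to 501 with 1 library left out. The contrast of replicates 2 and 3 with the pair had 4222, and 2707 to 6357 with 1 library left out. There the pair has 1 library a side, taken to vary like the others. A fit with the replicate number as a block called 733 genes (532 higher, 201 lower), 616 of the 714 among them. Deviations from the group mean correlated at -0.05, -0.23 and 0.16 between same-numbered KO and WT cDC1 libraries, and at -0.32 to 0.32 between others. With 3 libraries a group this cannot decide whether the numbers pair the samples. Mitochondrially encoded mRNAs summed highest in the library numbered 1 of both genotypes (20504.5, 8250.82 and 6907.78 CPM in KO, 21567.5, 11627.5 and 13519.1 in WT). Ribosomal protein sums set only WT replicate 1 apart. A term for libraries numbered 1 gave 1001 calls (674 higher, 327 lower), 706 of the 714 among them.

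Of 107 called genes given with their change, 101 kept the call in every alternative that gave an adjusted p. There were 27 of these, or 26 for Klrb1b, to which DESeq2 gave none. The other 6 genes are named in the results. The 107 were drawn mostly from genes already seen to keep their call, so that share does not describe all calls. Of the 162 called genes that the rule takes, 110 kept it everywhere and 52 lost it somewhere. Of all 714 calls, 317 to 379 remained without any 1 cDC1 library other than WT replicate 1. Hspa1a, not called, ranged from -0.086 without cDC1 WT replicate 1 to 1.12 without WT replicate 2. Depth limits low genes most: 92 of the risen and 28 of the fallen genes were under 5 CPM in both groups.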
